A study of Macaca fascicularis and Macaca mulatta and Papio anubis with 20 samples.

Results

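HOX genes encode homeodomain transcription factors that lie in 4 chromosomal clusters, HOXA, HOXB, HOXC and HOXD, and carry a paralogue group number from 1 to 13. Genes with low numbers lie at the 3′ end of a cluster and are switched on nearer the head of the embryo, and genes with high numbers towards the tail. Adult tissues, dorsal root ganglia among them, keep part of this pattern, so that the set of HOX genes a ganglion expresses follows its position along the body axis. The members described here were all symbols of the *Macaca fascicularis* feature list that begin with HOX, a cluster letter and a digit: 34 of 22000 features. Of the 39 mammalian HOX genes, HOXB3, HOXC4, HOXC10, HOXC11 and HOXD11 carried no symbol in that list and were not analysed here in that species. The labels name no axial level for any ganglion, and none is assigned here.

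Dorsal root ganglia hold the cell bodies of the sensory neurons beside the spinal cord. Fresh frozen ganglia were cut at 10 µm, and the sections lay 100 µm apart, with at least a pair of sections from each ganglion. RNA was captured by Visium, in which polyA RNA binds to barcoded spots under the tissue and molecules are told apart by unique molecular identifiers (UMIs). A spot can hold several cells of different types. The 16 *M. fascicularis* sections divide into 4 title codes with 4 sections apiece: batch 1 holds 1 female and 1 male code, and so does batch 2. Each code is treated as a specimen, although the labels do not say whether its sections share an animal or a ganglion. With 1 code per sex and batch, animal, ganglion level, sex and batch cannot be told apart within a code, and p-values over sections measure the spread between sections, which may be technical. A further 2 sections were labelled *Macaca mulatta* and 2 *Papio anubis*, with no sex given and all in batch 2. Their feature identifiers carry the Ensembl prefix of the other of these 2 species, so labels and files may be crossed, and these sections are named here by their label only.

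Total counts under tissue ranged from 1136433 to 7073134 UMIs in the *M. fascicularis* sections. They were 190376 and 264661 in the sections labelled *M. mulatta*, and 595020 and 12595205 in those labelled *P. anubis*. Levels below are CPM, the UMIs of a gene per 1000000 UMIs of its section. A count of 0 allows up to 3 UMIs, which are 0.424 to 2.64 CPM in a *M. fascicularis* section, a limit that covers counting error only. Markers of the labelled tissue were present in every title code: the summed level of the 12 neuron markers averaged between 22450 and 30933 CPM, and the satellite glia and myelinating Schwann lists were also detected. The male code of batch 2 differed in other lists. Its summed spinal cord list averaged 1115 ± 167 CPM (SD, n = 4), against 226 to 311 in the other codes. GFAP, a glial filament gene, was the most abundant gene of that list. AQP4, an astrocyte water channel, ran from 28.1 to 181 CPM over the 16 sections and was higher in batch 2 (log2 fold change 1.27, adjusted p = 0.0336 by the batch fit below). MOBP, a myelin gene of oligodendrocytes, ran from 0 to 3.23 CPM, while OLIG2 was listed at 0 in every section and CHAT, MNX1 and OPALIN reached at most 0.256 CPM. By the edgeR comparison of spots below, GFAP (log2 fold change 0.52, adjusted p = 2.15e-07) and AQP4 (0.49, adjusted p = 5.07e-05) were higher in satellite glia-rich spots. MOBP did not pass there (adjusted p = 0.821). The adipocyte list of the male code of batch 2 averaged 4841 CPM, against 1266 to 2523 elsewhere, and the neuron list of that code was the lowest of the 4.

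Of the 34 members, 23 had at least 1 UMI over the 16 *M. fascicularis* sections and 11 had none, among them HOXA13, HOXB13, HOXC12, HOXC13, HOXD12 and HOXD13. The members together gave 6795 UMIs, and 6 of them gave 6375, or 93.8%. These 6 were HOXB8 with 3185 UMIs, HOXB5 with 1430, HOXC9 with 629, HOXB7 with 556, HOXA10 with 325 and HOXA7 with 250, and they were also the 6 members with a UMI in all 16 sections. A further 12 had 10 to 99 UMIs, of which HOXA9 with 95, HOXB2 with 75 and HOXB6 with 54 were the most counted, and 5 had 1 to 9. Counts were not scaled by transcript length, so their order is not an order of transcript levels between genes.

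By cluster, HOXB gave 5350 UMIs (78.7% of the members' UMIs), HOXA 731 (10.8%), HOXC 650 (9.57%) and HOXD 64 (0.942%). The HOXD members were few in every code: HOXD4 had 28 UMIs, HOXD1 17, HOXD8 16, HOXD9 2 and HOXD3 1. At the posterior end of the clusters, HOXA10 was detected throughout, HOXA11 had 1 UMI in a single section, and the 7 members above group 9 other than these had none. At the anterior end, group 2 was represented by HOXB2 and the 10 UMIs of HOXA2, and group 3 by the single UMI of HOXD3. In the RefSeq models of the T2T-MFA8v1.1 assembly of this species, 17 pairs of HOX genes overlap, among them HOXB8 with HOXB9 and HOXC9 with HOXC6, HOXC8 and HOXC10. How the authors' counting divided UMIs between overlapping models is not given in the sources used here, so the split between these genes is uncertain.

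The mean paralogue group number, weighted by UMIs, was 7.22 ± 0.0647 (SD, n = 4 sections) in the female code of batch 1, 7.38 ± 0.113 in the male code of batch 1, 7.32 ± 0.0479 in the female code of batch 2 and 7.04 ± 0.155 in the male code of batch 2. The value turns on HOXB8 and HOXB5, groups 8 and 5. Without the most counted member of each section it fell to between 6.37 and 6.85 in the 4 codes. Group 8 gave 51.5% ± 4.49 of HOX UMIs in the female code of batch 1, 47.6% ± 4.68 in the male code of batch 1, 42.0% ± 4.76 in the female code of batch 2 and 39.9% ± 7.77 in the male code of batch 2. Group 10, which is HOXA10 here, gave 2.71% ± 1.69, 4.30% ± 1.37, 7.85% ± 0.743 and 4.38% ± 3.58 in the same order. The female code of batch 2 thus had the highest mean share of HOXA10 UMIs. By share its sections, at 6.87% to 8.67%, overlapped those of the male code of batch 2, which reached 8.84%. In CPM the sections of the female code of batch 2, at 6.64 to 11.3, lay above every section of the other codes.

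**Figure D1:**
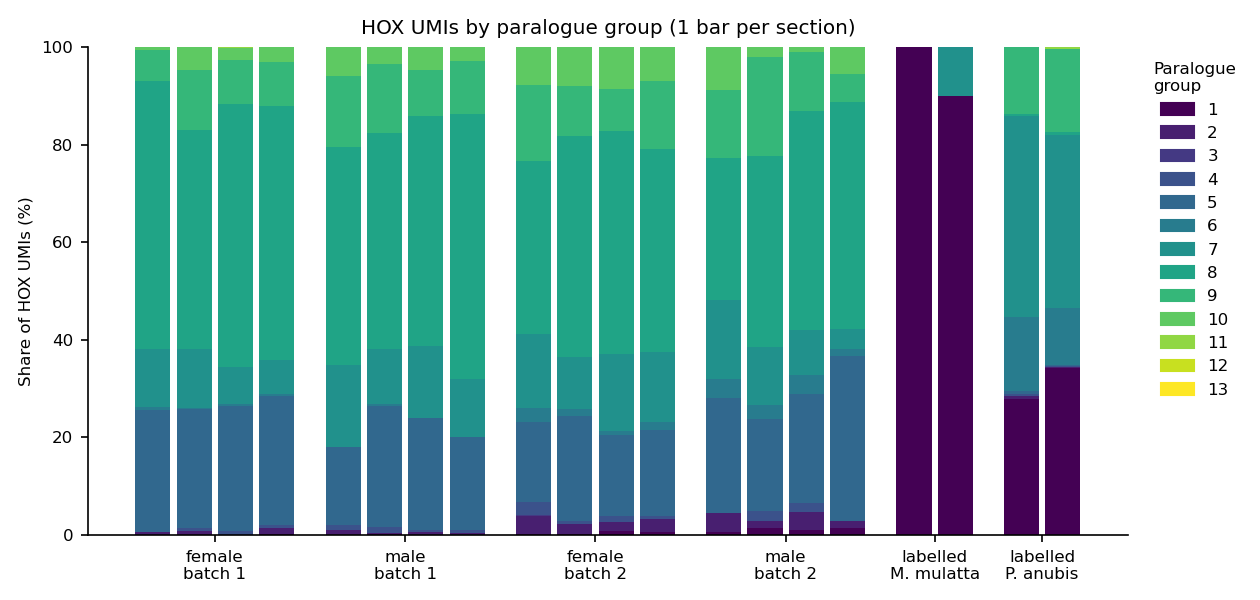
Share of the HOX UMIs of each section (%, 1 bar per section) by paralogue group, for the 4 *M. fascicularis* title codes and the sections labelled with the other species. Groups 5 and 8 fill most of each *M. fascicularis* bar, and group 7 averages 38.4% in the sections labelled *P. anubis*.

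Summed over the members, HOX levels were 116 ± 28.4 CPM in the female code of batch 1, 116 ± 29.5 in the male code of batch 1, 103 ± 18.9 in the female code of batch 2 and 61.7 ± 9.82 in the male code of batch 2. The sections of the male code of batch 2, at 52.8 to 75.1, lay below every other section, of which the lowest was at 82.3. In these bulk sums over a section, fewer cells of a type and less RNA per cell cannot be told apart.

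HOXB8, of group 8, was the most counted member in all 16 sections. Its levels were 54.7, 37.7, 76.8 and 71.0 CPM in sections 1 to 4 of the female code of batch 1, and 36.4, 44.2, 61.9 and 79.5 in the male code of batch 1. They were 30.7, 42.8, 57.9 and 39.3 in the female code of batch 2, and 16.5, 29.4, 23.2 and 29.0 in the male code of batch 2. The male sections of batch 2 were all below every other section, and the other 3 codes overlapped.

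HOXB5, the next most counted member, lies on the 3′ side of HOXB8 in the same cluster. It measured 24.8, 19.9, 36.0 and 34.8 CPM in the female code of batch 1 and 13.3, 24.2, 28.5 and 27.1 in the male code. In batch 2 it measured 14.4, 20.3, 20.8 and 17.0 in the female code and 13.05, 13.7, 11.4 and 20.2 in the male code. All codes overlapped their neighbours in the order of the means, and the ratio of HOXB8 to HOXB5 UMIs ran from 1.26 to 2.93 over the 16 sections.

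HOXC9 was the only HOXC member with more than 16 UMIs. It measured 4.35, 8.42, 11.6 and 10.5 CPM in the female code of batch 1, and 9.94, 12.4, 10.8 and 13.9 in the male code. In batch 2 it measured 11.4, 8.20, 8.21 and 9.77 in the female code and 4.66, 11.6, 6.42 and 3.52 in the male code. The 4 codes overlapped.

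HOXB7 measured 9.94, 8.66, 7.56 and 6.64 CPM in the female code of batch 1 and 10.5, 9.29, 13.99 and 10.7 in the male code. In batch 2 it measured 8.60, 6.95, 10.9 and 9.38 in the female code and 6.83, 7.35, 3.95 and 1.76 in the male code. The male code of batch 2 held the 2 lowest values and overlapped both female codes but not the male code of batch 1.

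HOXA10, the highest-numbered member with more than 1 UMI, measured 0.621, 3.98, 3.56 and 4.09 CPM in the female code of batch 1 and 4.97, 3.51, 6.19 and 4.38 in the male code. In batch 2 it measured 6.97, 7.66, 11.3 and 6.64 in the female code and 4.97, 1.58, 0.494 and 3.52 in the male code. The lowest values rest on 1 UMI each, in section 1 of the female code of batch 1 and section 3 of the male code of batch 2.

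HOXA7 measured 1.86, 1.404, 3.26 and 2.81 CPM in the female code of batch 1 and 3.31, 2.07, 5.38 and 6.93 in the male code. In batch 2 it measured 4.88, 3.39, 9.90 and 4.49 in the female code and 2.17, 1.58, 0.987 and 0.880 in the male code. The female sections of batch 2 were above every female section of batch 1, and the male sections of batch 2 rested on 1 to 7 UMIs.

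**Figure D2:**
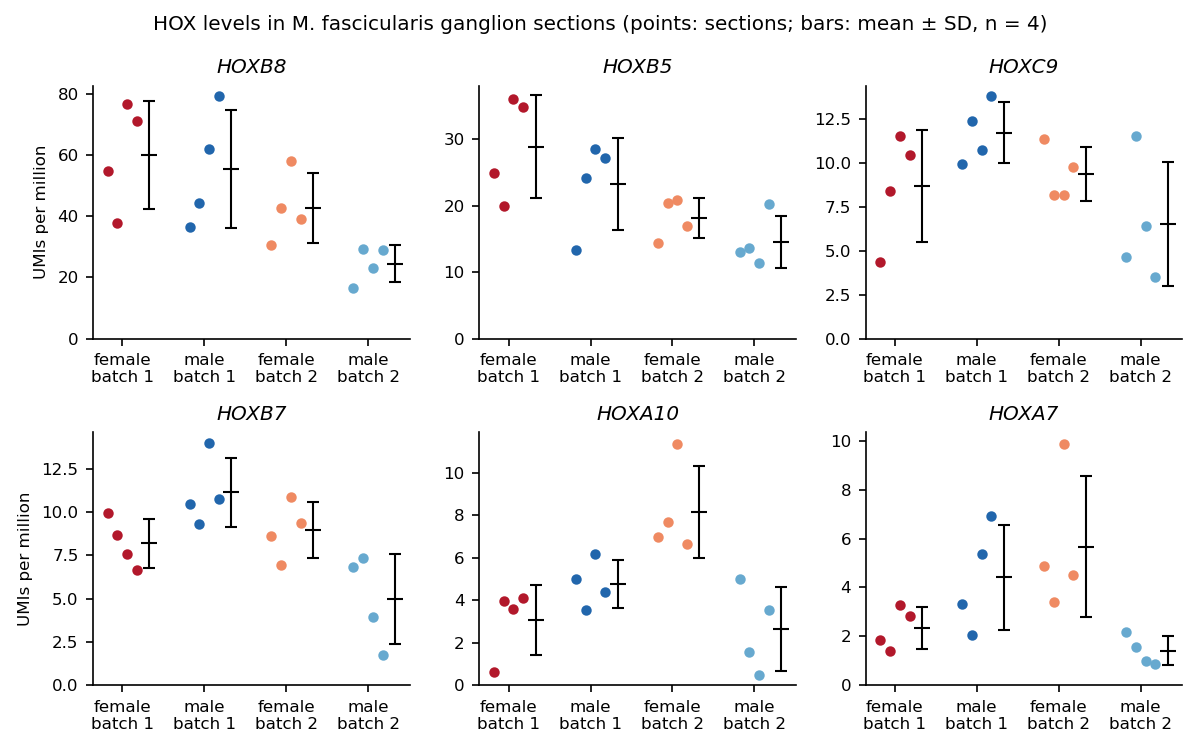
CPM of the 6 members with at least 100 UMIs in the 16 *M. fascicularis* sections, 1 point per section in section order, with the mean ± SD of each title code (n = 4). HOXB8 in the male code of batch 2 lies between 16.5 and 29.4, below all other sections, and HOXA10 in the female code of batch 2 lies between 6.64 and 11.3, above all other sections.

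The members were then compared between the 4 title codes, with the sections as samples and an edgeR quasi-likelihood test with Benjamini-Hochberg adjustment over all features tested. Only 7 members passed the filter on low counts. Of these, 5 differed between codes, against 54.8% of all 11063 features tested, so a difference between codes was common among all features. HOXA10 (adjusted p = 0.00576), HOXB8 (0.00593), HOXA7 (0.00900), HOXB5 (0.0198) and HOXB7 (0.0243) passed. HOXC9 (0.137) and HOXA9 (0.234) did not. The count fell to 3 without section 3 of the male code of batch 2, which left HOXA10, HOXA7 and HOXB8.

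Between pairs of codes, every call of HOXB8, HOXB5 and HOXB7 involved the male code of batch 2, every call of HOXA10 the female code of batch 2, and every call of HOXA7 one or both of these codes. HOXB8 was lower in the male code of batch 2 than in the female code of batch 1 by a log2 fold change of -1.31 (SE 0.30, adjusted p = 0.00327), than in the male code of batch 1 by -1.20 (SE 0.29, adjusted p = 0.00576) and than in the female code of batch 2 by -0.99 (SE 0.30, adjusted p = 0.0163). HOXB5 was lower in that code than in the female code of batch 1 (log2 fold change -1.02, adjusted p = 0.00817). HOXB7 was lower there than in the male code of batch 1 (-1.01, adjusted p = 0.0130) and the female code of batch 2 (-0.88, adjusted p = 0.0261).

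HOXA10 was higher in the female code of batch 2 than in each of the other 3 codes. The log2 fold change was 1.44 (SE 0.38, adjusted p = 0.00558) against the female code of batch 1 and 0.97 (SE 0.36, adjusted p = 0.0384) against the male code of batch 1, and the male code of batch 2 was lower by -1.69 (SE 0.44, adjusted p = 0.00782). HOXA7 was higher in the same code than in the female code of batch 1 (1.36, adjusted p = 0.0150), and the male code of batch 2 was lower than the female code of batch 2 (-2.001, adjusted p = 0.00787) and the male code of batch 1 (-1.51, adjusted p = 0.0432). The background in these 5 comparisons was 43.9% of features called between the female codes and 41.0% between the female code of batch 2 and the male code of batch 1. It was 27.3%, 27.2% and 30.9% for the male code of batch 2 against the female code of batch 1, the male code of batch 1 and the female code of batch 2. Between the female and male codes of batch 1, 0 members and 0 of 11063 features (0%) passed by edgeR, with 429 features at an unadjusted p under 0.05. The male code of batch 2 also had the high spinal cord and adipocyte lists and the low neuron list given above, whose part in these differences was not tested.

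With the sections of a code summed and the codes as samples, batch 2 was compared with batch 1 with sex as a covariate. None of the 11 members that passed the filter was called by edgeR's quasi-likelihood test, against 2.88% of 12650 features. At an unadjusted p under 0.05 there were 4: HOXB6, HOXB2, HOXB8 and HOXB5. DESeq2 also called 0. HOXB8 had a log2 fold change of -0.85 (SE 0.27, adjusted p = 0.153) and HOXB5 of -0.66 (SE 0.26, adjusted p = 0.234). Both were called only with sections in place of codes as samples or, for HOXB8, with no filter on low counts.

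HOXB6 and HOXB2 leaned the other way at low counts. In batch 1, HOXB6 had 6 UMIs in the female and 2 in the male code, and in batch 2 it had 30 and 16, with means of 0.297 ± 0.231 and 0.103 ± 0.207 CPM in the first pair of codes and 1.57 ± 0.564 and 1.78 ± 0.607 in the second. It was the 1 member whose batch 2 sections all lay above its batch 1 sections, an order seen in 1.93% of features, while no member showed the reverse order seen in 4.02%, and its log2 fold change was 3.03 (SE 0.74, adjusted p = 0.0803). HOXB2 averaged 0.410 ± 0.453 and 0.566 ± 0.303 CPM in batch 1 and 2.33 ± 0.416 and 1.52 ± 0.649 in batch 2 (log2 fold change 2.17, SE 0.62, adjusted p = 0.117). HOXB6 passed without section 1 of the female code of batch 1 (adjusted p = 0.0478) and without its section 4 (0.0110), and HOXB2 without section 4 (0.0330). Among the *M. fascicularis* sections, the batches also differed in the version of the counting software, which cannot be told apart from batch there.

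Sex was compared in the same fit. None of the 11 members was called between the female and the male codes, against 0 of 12650 features (0%) by edgeR, with 169 features and none of the members at an unadjusted p under 0.05. DESeq2 also called 0 members. HOXB8 was the nearest, with a log2 fold change of 0.56 (SE 0.27, adjusted p = 0.998).

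Sections 3 and 4 were set against sections 1 and 2 within each code, since sections of a code may come from different depths or ganglia. Sections 3 and 4 carried higher library numbers than sections 1 and 2, and the labels do not say whether these are different slides. Depth, ganglion and slide cannot be told apart in this comparison. None of the 7 members tested was called by edgeR in any of the 4 codes. The background was 4.13% and 2.48% of 11527 features in the female and male codes of batch 1, 0% in the female code of batch 2 (171 features at an unadjusted p under 0.05) and 0.425% in the male code of batch 2. DESeq2 called 0 members in each. In the female code of batch 1, HOXB8 differed by a log2 fold change of 0.75 (SE 0.26, adjusted p = 0.127) and HOXB5 by 0.72 (SE 0.26, adjusted p = 0.155). In the male code of batch 1, HOXB8 differed by 0.86 (SE 0.25, adjusted p = 0.0899) and HOXA7 by 1.28 (SE 0.44, adjusted p = 0.147). In the male code of batch 2, HOXA9 had 8 and 5 UMIs in sections 1 and 2 and 0 in sections 3 and 4, and its adjusted p, 0.0795, was the lowest of the members' tests of sections 3 and 4 against 1 and 2. In sections 3 and 4, 3 UMIs would be 1.48 and 2.64 CPM, against 2.48 and 2.63 CPM measured in sections 1 and 2.

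HOX levels were next compared between spots rich in the transcripts of a cell type and the other spots. Spots with at least 200 UMIs were ranked within each of the 15 sections with a count matrix by the share of their UMIs from a marker list, and the top 25% were called rich (4648 rich and 13946 other spots). The lists hold no HOX gene. Counts were summed per code and compared by edgeR with the code as a block, so n = 4 codes, and the SD below is over codes.

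In neuron-rich spots 4 of the 9 members tested were called, against 42.1% of 12110 features. All 4 were higher, as were 2420 of the 5104 features called. HOXB8 measured 65.2 ± 22.5 CPM in neuron-rich spots and 33.2 ± 14.5 in other spots, higher in 4 of 4 codes, with a log2 fold change of 1.07 (SE 0.087, adjusted p = 1.67e-07). By code its level in neuron-rich and other spots was 81.2 and 50.4 in the female and 85.2 and 39.0 in the male code of batch 1, and 57.5 and 26.3 in the female and 36.8 and 17.2 in the male code of batch 2. HOXB5 measured 26.4 ± 8.57 and 18.4 ± 5.88, higher in 4 of 4 codes (log2 fold change 0.61, SE 0.098, adjusted p = 0.000134).

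HOXA7 measured 4.51 ± 2.63 CPM in neuron-rich spots and 2.75 ± 1.04 in other spots, higher in 3 of 4 codes (log2 fold change 0.85, SE 0.22, adjusted p = 0.00511). HOXA10 measured 5.79 ± 2.79 and 4.30 ± 1.33, higher in 3 of 4 codes (0.50, SE 0.18, adjusted p = 0.0335). These last calls were lost in several settings: without the female code of batch 2 the adjusted p was 0.109 for HOXA7 and 0.280 for HOXA10, without the male code of batch 1 it was 0.137 for HOXA10, and DESeq2 gave 0.0939 and 0.263. HOXC9 did not pass, at 8.97 ± 2.87 and 9.91 ± 2.104 (adjusted p = 0.752). HOXB7 had a lower mean in neuron-rich spots, 6.69 ± 2.64 against 9.45 ± 2.65, and was higher there in 1 of 4 codes (log2 fold change -0.33, SE 0.17, adjusted p = 0.140). Without the female code of batch 2 it was called lower (-0.65, adjusted p = 0.00896). Whether the members differ from each other in this contrast was not tested.

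Depth moved with the contrast: neuron-rich spots held a median of 4681 UMIs and other spots 1225. In 3 of the contrasts that follow it ran the other way, with medians of 584 UMIs in myelinating Schwann-rich and 2179 in other spots, 876 and 2156.5 for fibroblast-rich spots and 867 and 2062 for smooth muscle-rich spots. Spots outside the tissue in the same sections held 571 HOX UMIs, a level of 114 CPM against 109 under tissue. The part of either in the contrasts was not tested.

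**Figure D3:**
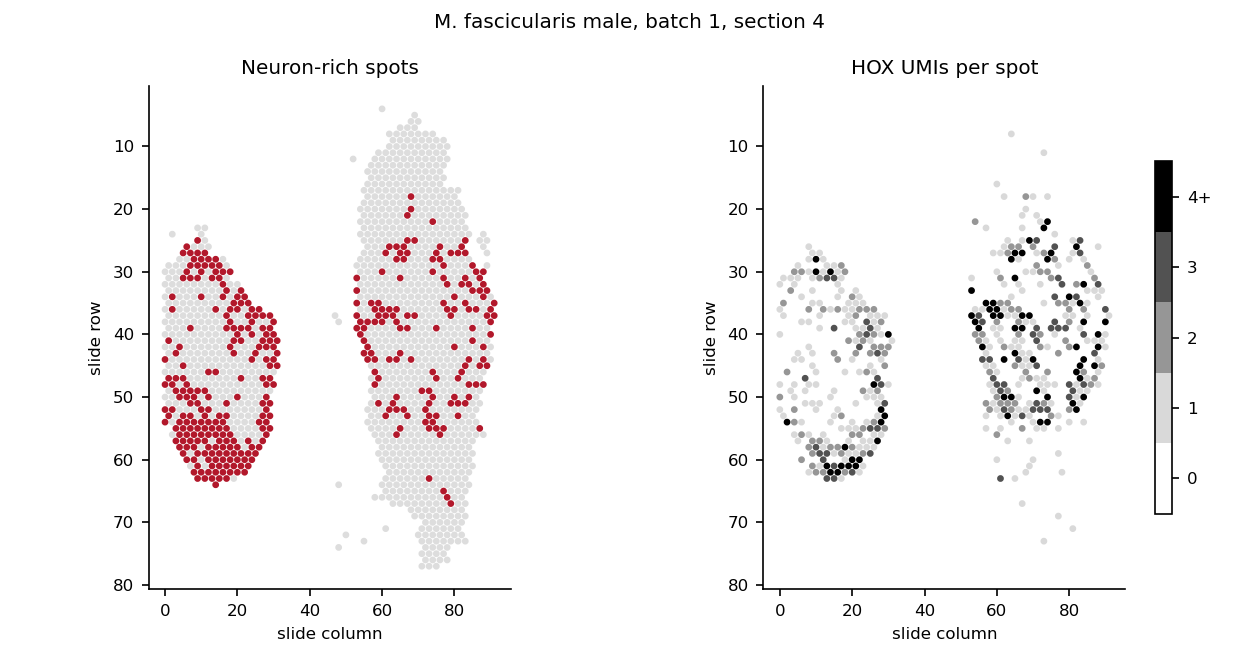
Spots of section 4 of the male code of batch 1 in slide rows and columns: at left the neuron-rich spots in red (358 of 1458), at right the number of HOX UMIs per spot. Of the 70 spots with at least 4 HOX UMIs, 59 were neuron-rich. Over the 15 sections, neuron-rich spots also held more UMIs of all genes (median 4681 against 1225).

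In the spots rich in other cell types, calls were all in the direction of lower levels. Spots rich in myelinating Schwann transcripts had 2 of 6 tested members called, both lower, against 34.9% of 11031 features called and 17.1% called lower. HOXB8 measured 17.3 ± 4.04 CPM there and 48.9 ± 19.2 in other spots, lower in 4 of 4 codes (log2 fold change -1.52, SE 0.20, adjusted p = 2.07e-06). HOXA10 measured 1.59 ± 1.12 and 5.22 ± 2.15 (-1.55, SE 0.54, adjusted p = 0.0274) on 6 UMIs in the rich spots. The HOXA10 call was lost without the male code of batch 1 (adjusted p = 0.0929), the female code of batch 2 (0.0989) or the male code of batch 2 (0.0509).

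Fibroblast-rich spots had 1 of 6 tested members called, HOXB8, against 29.1% of 11070 features called and 13.1% called lower. It measured 19.7 ± 6.88 CPM there and 49.4 ± 19.3 in other spots (log2 fold change -1.32, SE 0.21, adjusted p = 0.00115), while HOXB5 measured 22.3 ± 7.85 and 22.01 ± 6.72 (adjusted p = 0.992). In smooth muscle-rich spots HOXB8 was again the 1 of 6 called, against 15.9% of 10843 features called and 5.51% called lower, at 21.96 ± 3.64 and 49.3 ± 19.9 (-1.10, SE 0.23, adjusted p = 0.0136). By code, HOXB8 in smooth muscle-rich and other spots was 26.8 and 66.8 in the female and 21.0 and 62.7 in the male code of batch 1. In batch 2 it was 18.1 and 44.2 in the female code, but 21.9 and 23.4 in the male code, with overlapping Poisson intervals. The HOXB8 call was lost without the female code of batch 1 (adjusted p = 0.120), the male code of batch 1 (0.110) or the female code of batch 2 (0.116).

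Satellite glia, the cells that wrap the neuron bodies, gave 0 of 8 tested members called, against 11.7% of 11329 features; 1 member, HOXB5, had an unadjusted p under 0.05, and DESeq2 also called 0. HOXB8 measured 42.6 ± 20.8 in satellite glia-rich spots and 48.2 ± 17.8 in other spots (adjusted p = 0.286). Of 35 tests of whether a member's compartment contrast differed between batches, 3 had an unadjusted p under 0.05 and the lowest adjusted p was 0.516. Such a difference was called for 0.0330% of all features in the neuron, 0.888% in the myelinating Schwann, 0.459% in the satellite glia and 0% in the fibroblast and smooth muscle contrasts.

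**Figure D4:**
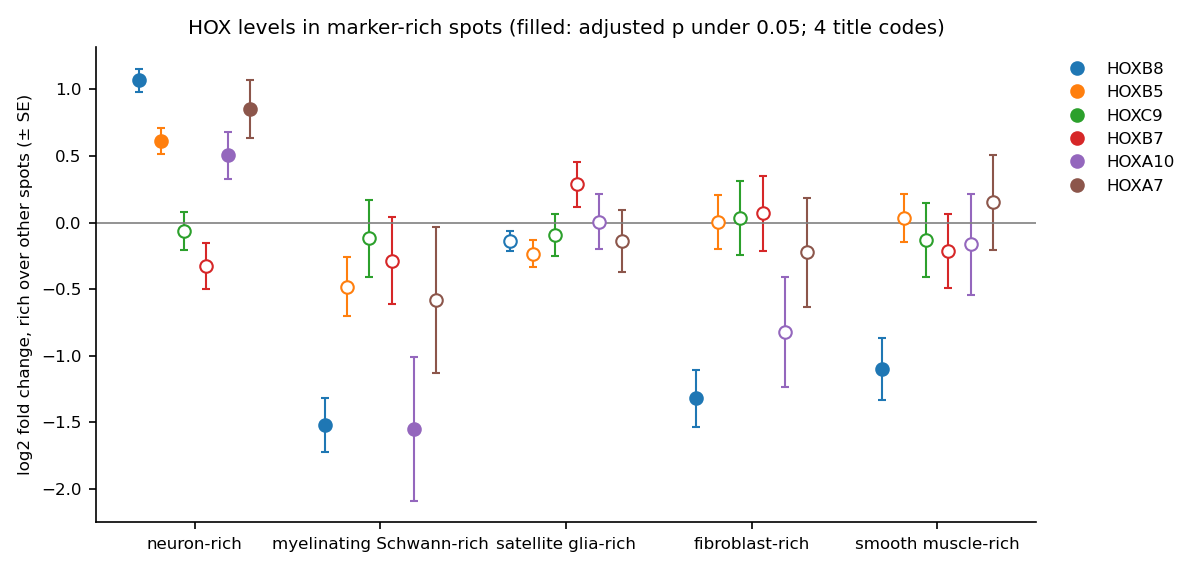
Log2 fold change (± SE) of the 6 most counted members between marker-rich and other spots, fitted over 4 title codes. Filled points passed an adjusted p of 0.05. HOXB8 runs from 1.07 in neuron-rich spots to -1.52 in myelinating Schwann-rich spots, and HOXC9 stays between -0.13 and 0.03.

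Moran's I measures how alike neighbouring spots are. The authors' deposited tables gave it for each gene and section with an adjusted p within the section. Of 226 pairs of a member and a *M. fascicularis* section, 15 had an adjusted p under 0.05 in the authors' deposited tables, 6.64% against 16.2% of 220436 pairs of any feature and section. HOXB8 accounted for 7 of the 15, with a median I of 0.0184 and a range from -0.00934 to 0.0896 over the 16 sections. It passed in all but 1 section of each code of batch 1 and, in batch 2, only in section 4 of the female code. HOXA10 passed in 2 sections, and HOXA5, HOXB2, HOXB5, HOXB7, HOXC9 and HOXD8 in 1 each. Of the 15 pairs, 9 rested on at least 20 UMIs. In the authors' deposited tables the highest I of a member, 0.0954 for HOXB2, came from 2 UMIs in 2 spots. No pair reached an I of 0.1.

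For the labelled species, levels were recomputed over the 13089 symbols that occur once in each of the 3 feature lists, 33 members among them. With 1 code for each of the other labelled species there is no test, and a member is counted as higher or lower where its sections do not overlap the 16 *M. fascicularis* sections and the means lie at least 4-fold apart. The annotation differs between the 3 feature lists, and the version of the counting software differs between sections. The part of either in these differences was not tested.

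In the sections labelled *P. anubis*, 9 members were higher, against 8.24% of 12070 symbols, and 3 were lower, against 8.91%. HOXD1, at 17 UMIs over the 16 *M. fascicularis* sections, had 1983 UMIs here, a pooled level of 278 CPM over shared symbols against 0.421. HOXA7 stood at 184 against 6.19, HOXA9 at 120 against 2.35 and HOXB6 at 91.8 against 1.34. HOXB7 stood at 110 against 13.8 and HOXB9 at 9.82 against 0.866. The remaining 3 were counted rarely: HOXC8 had 14 UMIs (1.96 against 0.396) and HOXC6 had 9 (1.26 against 0.0495). HOXA6 had 19 here and 0 in *M. fascicularis*, at least 35.9-fold higher against 3 UMIs over the group. Section 2 gave 5647 of the members' UMIs and section 1 gave 197, so the pooled levels mostly reflect section 2. Section 1, the less deep, held 326992 UMIs over shared symbols. For these 3 members, 1 UMI there lies above every *M. fascicularis* section, so these calls can rest on 1 UMI. The same holds in section 1 for HOXB9, whose highest *M. fascicularis* section was at 1.65 CPM and which had 70 UMIs in the sections labelled *P. anubis*. Poisson intervals of the pooled levels cover counting error only. They reached below the highest *M. fascicularis* section for HOXC8 (1.07 to 3.29, against 1.22) and HOXC6 (0.577 to 2.40, against 0.935). The interval of HOXA6 was 1.60 to 4.16.

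The 3 lower members in those sections were the ones counted most in *M. fascicularis* and HOXA10. HOXB8 had 5 UMIs, 0.701 CPM against 78.8. HOXB5 had 2 UMIs, 0.280 against 35.4, and HOXA10 had 1 UMI, 0.140 against 8.04. HOXC9 overlapped, at 8.55 against 15.6. The mean paralogue group was 5.29 over the 2 sections, and 7.22 without HOXD1.

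Levels in neuron-rich and other spots of the sections labelled *P. anubis* are CPM over all features, not over shared symbols, and so run lower than the values above. They are pooled over the 2 sections, and most of the HOX UMIs came from section 2. Their exact Poisson 95% intervals cover counting error only. HOXD1 measured 197 CPM (187 to 208) in neuron-rich spots and 101 (93.6 to 110) in other spots. HOXA7 measured 111 (103 to 119) and 88.5 (81.2 to 96.3), and HOXA9 76.3 (69.9 to 83.1) and 53.9 (48.3 to 60.1). HOXB6 measured 48.3 (43.2 to 53.8) and 52.3 (46.7 to 58.4), with overlapping intervals, and HOXB7 49.0 (43.9 to 54.5) and 71.0 (64.5 to 78.0). In *M. fascicularis* the means of HOXA7 and HOXB7 lay on the same side of equality as here, although HOXB7 did not pass. HOXB6 lay on the opposite side there, at 1.33 CPM in neuron-rich and 0.779 in other spots, and did not pass (adjusted p = 0.185). In the authors' deposited table of section 2, HOXD1 had an I of 0.105. There, 7 of 24 members had an adjusted p under 0.05, against 22.6% of 15449 features.

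In the sections labelled *M. mulatta* only 41 HOX UMIs were counted, and 38 of them were HOXD1, at 216 and 126 CPM over shared symbols and pooled at 164 against 0.421. It was the 1 member counted as higher, against 7.99% of symbols. HOXB7 had 2 UMIs. Spots outside the tissue in these sections held 17 HOX UMIs and 19.6% of all UMIs. Over all features, the HOX level was 153 CPM there and 90.1 under tissue, and the source of these UMIs was not tested. The 5 members counted as lower, against 29.1% of symbols, all had 0 UMIs: HOXB8, HOXB5, HOXC9, HOXA10 and HOXA7. Against 3 UMIs over the group, 12.9 CPM, HOXB8 was at least 6.11-fold lower, HOXB5 at least 2.74-fold and HOXC9 at least 1.21-fold. The *M. fascicularis* levels of HOXA10 and HOXA7, 8.04 and 6.19, lie under that limit, so a difference was not detectable at this depth. The neuron list averaged 11299 CPM in these sections and the fibroblast list 9051, against at most 2736 in the *M. fascicularis* codes, whose part in the low HOX counts was not tested.

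**Figure D5:**
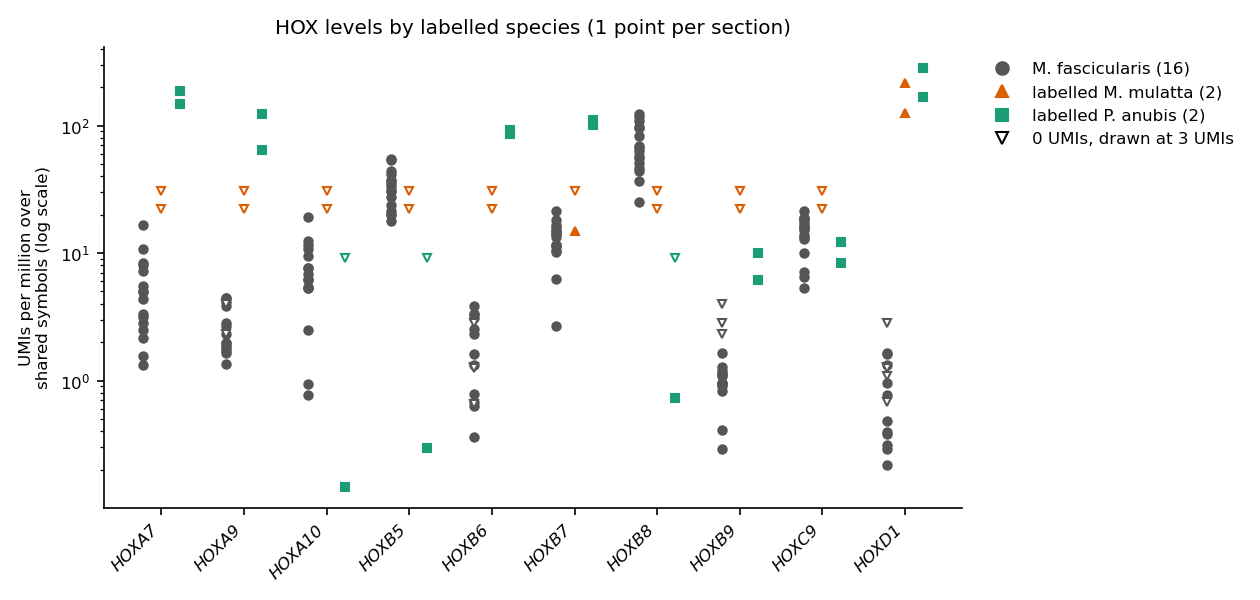
CPM over shared symbols (log scale) of the 10 shared members with at least 100 UMIs in all, 1 point per section, with sections at 0 UMIs drawn as open triangles at the level of 3 UMIs. HOXB8 and HOXB5 are high in *M. fascicularis*, HOXD1 is high in both other labelled species, and HOXA7, HOXA9, HOXB6 and HOXB7 are highest in the sections labelled *P. anubis*.

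HOX proteins bind DNA with cofactors of the PBX, MEIS and PKNOX families, and their genes are held silent or active by Polycomb and Trithorax complexes and set in the embryo by retinoic acid and caudal factors. Lists of these genes were fixed with earlier results of these data known. Between batches, 0 of 9 tested cofactors, 0 of 15 chromatin regulators and 1 of 6 retinoic acid and caudal genes were called, against 2.88% of all features. RXRG, a retinoid X receptor, was lower in batch 2 (log2 fold change -1.79, SE 0.34, adjusted p = 0.0384). The medians of the 3 lists were -0.04, 0.05 and -0.94, against -0.01 over all features. Between the 4 codes, 3 of 8 cofactors, 6 of 13 chromatin regulators and 5 of 5 retinoic acid genes were called, against the 54.8% above.

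In neuron-rich spots, where HOXB8 rose, 2 of 9 cofactors were called, against 42.1% of all features. MEIS2 was higher (log2 fold change 0.57, SE 0.13, adjusted p = 0.00246) and PKNOX2 lower (-0.41, SE 0.13, adjusted p = 0.0201). Of 15 chromatin regulators 8 were called, against the same 42.1%: 2 were higher and 6 lower, with a list median of -0.36 against -0.04 over all features. The Polycomb members RNF2 (-0.56, adjusted p = 0.000430) and BMI1 (-0.36, adjusted p = 0.00422) were lower. So were the listed regulators ASXL1 (-0.37, adjusted p = 0.00303) and KAT6A (-1.33, adjusted p = 0.0208). EZH1, a Polycomb methyltransferase, was higher (0.20, adjusted p = 0.0238), as was MEN1 (0.31, adjusted p = 0.00636), a subunit of a Trithorax complex. Of 6 retinoic acid genes, RARG (-0.86, adjusted p = 0.000641) and RXRA (-0.55, adjusted p = 0.0135) were lower.

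In myelinating Schwann-rich spots, where HOXB8 fell, MEIS2 was lower (-0.91, SE 0.34, adjusted p = 0.0391) and PBX3 higher (0.58, SE 0.15, adjusted p = 0.00483). RXRA (1.62, adjusted p = 4.48e-05), RARG (1.32, adjusted p = 0.000548), BMI1 (0.85, adjusted p = 0.000180) and RNF2 (0.96, adjusted p = 0.000576) were higher. RARG was also higher in fibroblast-rich (1.79, adjusted p = 0.00214) and smooth muscle-rich spots (1.4, adjusted p = 0.0221). In satellite glia-rich spots, where no HOX member was called, RXRG (0.57, adjusted p = 0.00177), PCGF2 (0.38, adjusted p = 0.00525) and BMI1 (0.27, adjusted p = 0.0226) were higher. RARG, RXRA and RNF2 did not pass there. Of all features, 34.9% were called in the myelinating Schwann, 29.1% in the fibroblast, 15.9% in the smooth muscle and 11.7% in the satellite glia contrast. Whether these genes move with HOXB8 was not tested. The contrasts divide the same spots, so these values are not independent of each other.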

How the data were processed

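Visium data of 20 dorsal root ganglion sections were used. The deposited matrices hold whole UMI counts for each feature in each spot. Per the file headers, 12 came from Space Ranger 2.0.0 and 7 from Space Ranger 2.1.0. The submitters' processing notes name the build Mmul_10 for every sample, while the feature identifiers of the *M. fascicularis* files are that species' own, so no coordinates are given. Section 3 of the male code of batch 2 entered through its table of counts alone. Moran's I, a score per gene and section, and its p-value and adjusted p-value are the authors' deposited values and were only described.

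Counts under tissue were summed per section and, for specimen comparisons, per title code. Main tests used edgeR 4.0.16 quasi-likelihood fits with filterByExpr and TMM factors. Benjamini-Hochberg adjustment ran over all features tested, at a threshold of 0.05. DESeq2, limma-voom, other factors, no filter, other spot thresholds and left-out sections or codes were alternatives. The scripts were tested on simulated data. Members with at least 100 UMIs are given section by section, other members where called or by count, and listed genes where called, at most 6 per list by adjusted p. Section numbers did not pair sections across codes: deviations of same-numbered sections had a median correlation of 0.0117, against -0.0141 for other pairs. Of 24 same-numbered pairs, 10 correlated above 0.1, the highest at 0.496. The members, lists and rules were chosen with earlier results of these data known. HOXB6, HOXB2 and HOXA9 were also named after their values were seen. The values of 1 member are not reported here.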

Additional observations from a re-analysis of the deposited data

Results flagged for a closer look

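In the female code of batch 1, HOXA10 in section 1 stood apart from the other 3 sections at 0.621 CPM, against 3.56 to 4.09, and its value rests on 1 UMI. The log2 ratio of HOXB8 between neuron-rich and other spots was lowest in the same code, at 0.688 against 1.10 to 1.13 in the other 3 codes. Chance sets apart about 1 in 20 groups, and 54 groups were tested. Spots outside the tissue, which enter no comparison, held 571 HOX UMIs in the 15 *M. fascicularis* sections with a matrix, 114 CPM there, and their source was not tested.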

How the results depend on the processing

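Over 23 results, 203 alternatives left the value within the limits set for a stable result and 43 moved it. The cause was not tested for any of them. Between batches, where the count of members called was 0, it was 3 with no filter, 2 with sections as samples, 2 with sections as samples and the section number as a replicate block, and 0 to 2 with a section left out. Between the 4 codes, where it was 5, it was 8 with no filter and 3 to 6 with a section left out, and the replicate block kept it at 5. With no filter, the comparison of sections 3 and 4 with 1 and 2 gave 2 members in the female and 1 in the male code of batch 1. For neuron-rich spots the count of 4 became 2 with DESeq2, 2 with 50% of spots, 2 with standardized scores and 0 with no code block, and lay at 3 to 4 with a code left out. For myelinating Schwann-rich spots the count of 2 became 1 with DESeq2, 10% of spots, a minimum of 500 UMIs, no code block or sections as blocks, 0 with standardized scores, and 1 to 2 with a code left out. Satellite glia-rich spots gave 1 with 50% of spots. Fibroblast-rich and smooth muscle-rich spots each gave 0 with 50% of spots and 0 with no code block, and smooth muscle-rich spots 0 to 1 with a code left out. Of the 15 calls for Moran's I, 9 had at least 20 UMIs and 0 an I of at least 0.1. The mean paralogue group without the most counted member was 6.37 and 6.82 in the female and male codes of batch 1, 6.85 and 6.38 in those of batch 2 and 7.22 in the sections labelled *P. anubis*. Over members with at least 100 UMIs it was 7.53 and 7.30 in the female and male codes of batch 2 and 7.08 in the sections labelled *P. anubis*. With each detected member counted once it was 7.11 in the male code of batch 1, 6.69 and 7.20 in the female and male codes of batch 2 and 6.31 in the sections labelled *P. anubis*. Features called between batches rose from 364 to 522 with DESeq2, 1279 with no filter, 4345 with sections as samples and 4448 with the block, and in the neuron-rich contrast fell from 5104 to 3293 with DESeq2 and 177 with no code block. Section numbers did not pair sections, and 2 of 16 sections correlated best with their own number. Low counts limit most members: 6 of the 34 reached 100 UMIs.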
